A study of Mus musculus with 6 samples.

Results

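The amino acid and peptide transporters described here are 38 membrane carriers and their heavy chains, chosen by gene symbol among 18437 mRNAs. All 38 had a row in at least 1 table. They were grouped by what they carry, with 18 mRNAs for neutral amino acids, 8 for cationic amino acids, 3 for anionic amino acids and cystine, 5 for proline and glycine, 2 for peptides, 1 for taurine (Slc6a6), and Slc3a2, the heavy chain that several light chains share. The data were Ribo-seq libraries, which sequence the mRNA fragments that translating ribosomes protect from RNase I. Untreated wild-type C57BL/6J mice, 4 weeks old, gave 1 library for each of 6 tissues, namely small intestine, colon, kidney, lung, heart and brain, and nothing in the sources says how many animals went into a library. The ribosome density of an mRNA is given in RPKM, its reads on the coding sequence (CDS) divided by CDS length and by the total reads that the library has on CDSs. The 6 libraries held between 4504853 reads (labelled colon) and 10635031 reads (labelled brain) on CDSs. No tissue had a second library, so there was no spread between replicates to test against, and no p-value is given. Intervals are 95% intervals of the read counts and cover counting error only.

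Amino acids cross an epithelium in 2 steps, through carriers on the apical side that faces the lumen and through other carriers on the basolateral side that faces the blood. Apical carriers of enterocytes and of the proximal tubule of the kidney take up free amino acids with sodium or in exchange for other amino acids, and take up dipeptides and tripeptides with protons. Several carriers work as heterodimers, in which a light chain of the Slc7 family does the transport and a heavy chain, Slc3a1 or Slc3a2, brings it to the membrane. Slc6a19 and Slc6a18, carriers of neutral amino acids, work with a partner protein, which in the kidney is Cltrn (collectrin). In the brain, carriers of the same families move glutamine, glycine and glutamate between glia and neurons.

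The tissue labels were compared with 5 marker mRNAs for each of the 6 tissues. The markers of heart and lung were all highest in the libraries labelled heart and lung. The other 4 lists were each highest, in all 5 of their markers, under another label. The 5 small intestine markers were highest in the brain-labelled library, where Fabp2, a fatty acid binding protein of enterocytes, had 24021 RPKM. The 5 kidney markers were highest in the colon-labelled library, where Umod, the uromodulin of the nephron, had 16438 RPKM. The 5 colon markers were highest in the kidney-labelled library, where Clca1, a product of goblet cells, had 9861 RPKM. The 5 brain markers were highest in the small intestine-labelled library, where Syt1 of synaptic vesicles had 2332 RPKM. Of 5 astrocyte markers, Gfap and Slc1a2 were highest there too, with no reads of Gfap in any other library, whereas Aqp4 was highest in the kidney-labelled library (403 RPKM against 163), Aldh1l1 in the colon-labelled (697 against 39.9) and Gja1 in the heart-labelled (986 against 548). Every library is named below by its label, and the cause of the disagreement was not tested. All results below rest on these labels, and the values for the libraries labelled heart and lung are those whose labels match their markers. The mRNA of Kri1 took between 0.400% (labelled lung) and 22.1% (labelled kidney) of the reads, which lowers the RPKM of all other mRNAs of a library together but leaves ratios within it as they are.

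Reads that matched several mRNAs were left out by the authors, so a carrier with a near copy loses reads. The pair that this touches most is Slc6a20a, the imino acid carrier that takes up proline, and its neighbour Slc6a20b. Both lie on the minus strand of chromosome 9 in GRCm39, Slc6a20a at chr9:123463835-123508170 and Slc6a20b at chr9:123419865-123461630, with 2205 bases between them. Their CDSs were identical at 91.6% of 1776 aligned bases, and the longest stretch shared by both was 321 bases. Of all windows of 29 bases, about the length of a ribosome footprint, 52.3% of those in Slc6a20a and 55.6% of those in Slc6a20b occurred in no other mRNA. The following stretches of 30 bases of the CDS show why reads can be told apart in one place and not in another. The first is found in exon 2 of both genes (chr9:123493729-123493758 in Slc6a20a and chr9:123441165-123441194 in Slc6a20b), and a footprint from it would be discarded. The other is from exon 11 (chr9:123466072-123466101 and chr9:123424069-123424098), where capitals mark the 19 bases that differ.
Slc6a20a and Slc6a20b, alike: ggagtttcctggtcccctacatcatcatgc
Slc6a20a, different: GGAATcGcCtcaagaGGGgagGCTCTGCCC
Slc6a20b, different: CACGCcAcTtcaagaTCAgagAACAGTTTT
The RPKM of both genes is therefore understated, by a like factor for each if reads lie evenly. Of the other members, Slc36a1 and Slc36a2, carriers of glycine and proline with protons, had 89.0% and 90.2% of such windows to themselves, and 30 of the 38 members had 100%.

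The carriers took 0.692% of all CDS reads in the colon-labelled library (95% Wilson interval 0.685 to 0.700%) and 0.468% in the brain-labelled (0.464 to 0.473%). The share was 0.264% in the kidney-labelled library, 0.228% in the small intestine-labelled, 0.102% in the lung-labelled and 0.0480% in the heart-labelled. The 2 libraries with markers of kidney and small intestine thus gave carriers the largest shares. These intervals did not overlap between any 2 libraries. Shares and densities of a whole tissue cannot tell fewer cells of a type from less RNA per cell, nor more mRNA from more ribosomes per mRNA. The summed density ran in the same order, with 3887 RPKM in the colon-labelled library, 2565 RPKM in the brain-labelled, 1454 RPKM in the kidney-labelled, 1356 RPKM in the small intestine-labelled, 595 RPKM in the lung-labelled and 297 RPKM in the heart-labelled. The median carrier had 18.0 RPKM in the brain-labelled library, 13.8 RPKM in the colon-labelled and 1.39 RPKM in the heart-labelled, and between 4.48 and 6.34 RPKM in the other 3. A few carriers held most of the density, since the top 5 accounted for between 56.1% (labelled lung) and 79.1% (labelled colon) of the sum.

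**Figure D1:**
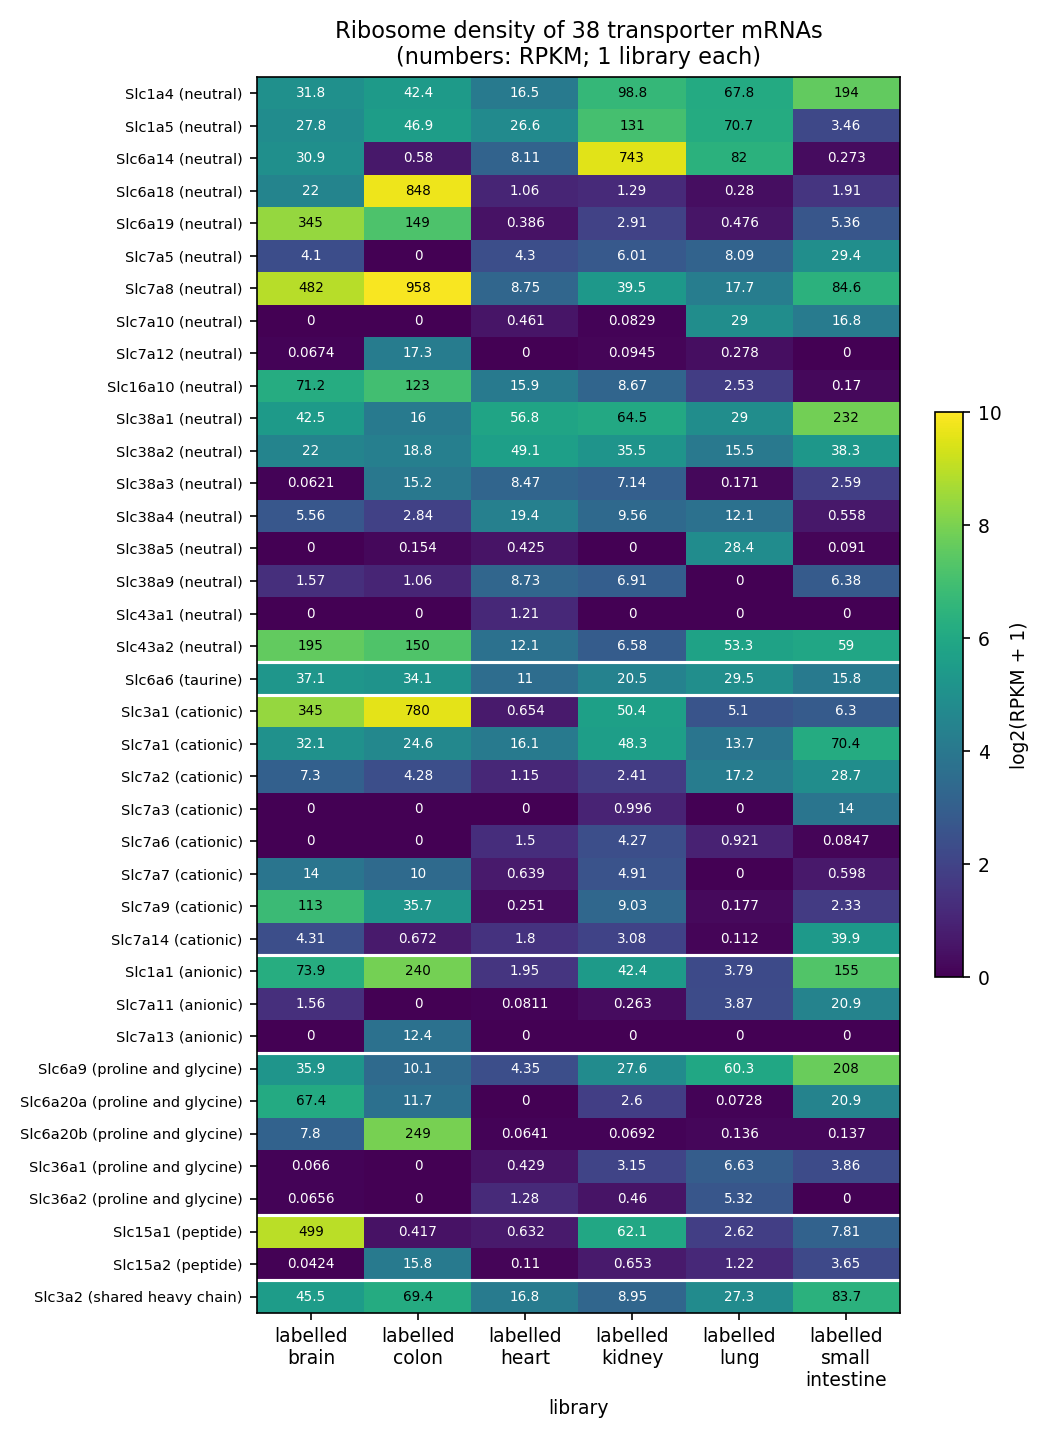
Ribosome density of the 38 carriers, with rows grouped by transport system and columns for the 6 libraries named by label; colours give log2(RPKM + 1) and the number in each cell is the RPKM. The brightest cells are Slc7a8 (958 RPKM), Slc6a18 (848 RPKM) and Slc3a1 (780 RPKM) in the colon-labelled library, followed by Slc6a14 (743 RPKM) in the kidney-labelled, and the heart-labelled library has no carrier above 100 RPKM.

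The systems took different shares of this sum. Neutral carriers held between 49.8% (labelled small intestine) and 80.2% (labelled heart) of the summed density and were the leading system in every library. Cationic carriers, counted with the heavy chain Slc3a1, held 20.1% in the brain-labelled library and 22.0% in the colon-labelled, against 6.26 to 12.0% in the other 4. Slc3a1 alone made up 66.9% of the cationic density in the brain-labelled library and 91.2% in the colon-labelled. These 2 larger shares therefore rest mainly on a heavy chain and not on the light chains and single-chain carriers. Peptide carriers held 19.5% in the brain-labelled library, 4.32% in the kidney-labelled and under 1% in each of the others, down to 0.250% in the heart-labelled. Carriers of proline and glycine held 17.1% in the small intestine-labelled library and 12.2% in the lung-labelled, and between 2.06 and 6.96% elsewhere. Anionic carriers also had their largest share, 13.0%, in the small intestine-labelled library, and held 6.49% in the colon-labelled. The taurine carrier Slc6a6 ranged from 0.877 to 4.96%, and the heavy chain Slc3a2 from 0.615 to 6.17%.

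**Figure D2:**
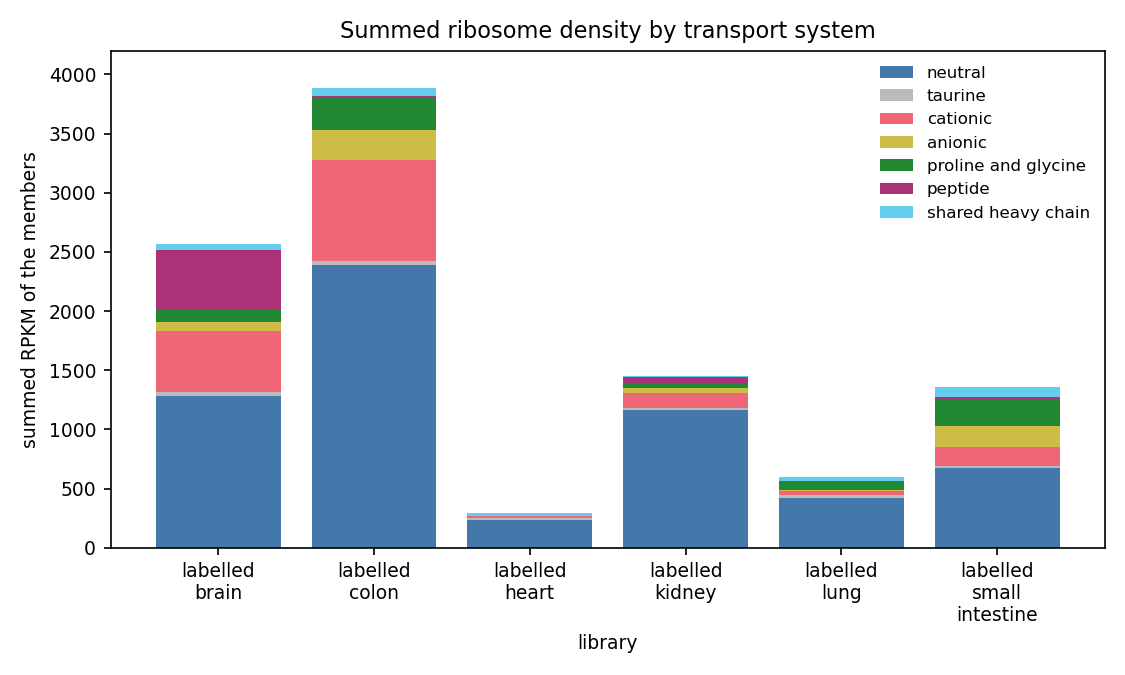
Summed ribosome density of the carriers (RPKM, stacked by transport system) in each library, named by label. Neutral carriers form the largest block in all 6 bars, and the peptide block is wide only in the brain-labelled library, at 499 RPKM.

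A carrier was called concentrated in a library when its RPKM there was at least 4-fold that in the second highest library and the intervals of both did not overlap. This was asked of mRNAs with at least 20 reads over the 6 libraries, which held for 37 of the 38 carriers. The carrier that missed was Slc43a1, a carrier of large neutral amino acids, with 18 reads, all in the heart-labelled library (1.21 RPKM). Of the 37, 12 (32.4%) were concentrated in 1 library, against a background of 22.9% of all 14754 mRNAs with as many reads. The library labelled colon had 5 of them (13.5% of 37), against a background of 2.60%, namely Slc6a18, Slc6a20b, Slc7a12, Slc7a13 and Slc15a2. The library labelled small intestine had Slc7a3, Slc7a11 and Slc7a14 (8.11%, background 9.51%), and the lung-labelled had Slc36a2 and Slc38a5 (5.41%, background 4.87%). The only one in the brain-labelled library was Slc15a1 (2.70%, background 2.30%), and the only one in the kidney-labelled was Slc6a14 (2.70%, background 1.16%). No carrier was concentrated in the heart-labelled library, where the background was 2.47%. The shares in 4 of the libraries were thus close to the background or rested on 1 carrier. The share in the colon-labelled library was above the background, but rested on 5 carriers. Of these, Slc7a12 and Slc7a13 reached 20 reads only through that library, as Slc7a3 and Slc38a5 did through theirs. The background had the same filter, so the excess is a description and no test. Slc15a2 fell to 3.98-fold without the reads of Kri1 in the denominator and to 3.20-fold with median-of-ratios scaling. Nearest to the threshold, Slc36a2 at 4.16-fold and Slc15a2 at 4.32-fold lay just inside, and Slc7a5 at 3.63-fold (4.21-fold without the reads of Kri1 in the denominator and 4.60-fold with median-of-ratios scaling) and Slc38a1 at 3.59-fold just outside.

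Among apical carriers of neutral amino acids, Slc6a19 and Slc6a18 had opposite orders in the libraries labelled brain and colon. Both are sodium-coupled carriers, and their genes are neighbours on chromosome 13, Slc6a19 at chr13:73827860-73852984 and Slc6a18 at chr13:73809871-73826145. Slc6a19 had 345 RPKM in the brain-labelled library, 149 in the colon-labelled, 5.36 in the small intestine-labelled, 2.91 in the kidney-labelled, 0.476 in the lung-labelled and 0.386 in the heart-labelled. Slc6a18 had 848 RPKM in the colon-labelled library, 22.0 in the brain-labelled, 1.91 in the small intestine-labelled, 1.29 in the kidney-labelled, 1.06 in the heart-labelled and 0.280 in the lung-labelled. Slc6a19 was thus high in 2 libraries and Slc6a18 in 1. The density of Slc6a19 was 15.7 times that of Slc6a18 in the brain-labelled library (95% interval 14.2 to 17.3) and 0.175 times in the colon-labelled (0.165 to 0.186). Their CDSs were 62.5% identical and shared no more than 29 bases in a row, so few reads were lost between them. Cltrn, the partner in the kidney, had 525 RPKM in the colon-labelled library and 19.5 in the brain-labelled. Slc6a19 was 0.283 times Cltrn in the colon-labelled library (0.263 to 0.305) and 17.7 times in the brain-labelled (14.9 to 21.1), so its order against Cltrn was also opposite.

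The 22.0 RPKM of Slc6a18 in the brain-labelled library were 2.59% of its level in the colon-labelled, and Slc6a20b stood at 3.13% there. The 5 kidney markers stood at 0.827 to 4.16% of their level in the colon-labelled library, with 449 RPKM of Umod. Of 6 proximal tubule markers, Slc34a1 stood at 1.97%, Lrp2 at 2.49% and Slc5a2 at 4.27% of their level in the colon-labelled library, Slc22a12 had no reads in the brain-labelled and Slc22a6 had 0.0575 RPKM, while Cubn, which enterocytes also make, was highest there at 269 RPKM. Whether reads of one library passed into another was not tested. In the small intestine-labelled library, Slc15a1 and Slc6a19 were each at 1.56% and Slc7a9 at 2.07% of their level in the brain-labelled, beside 1.15 to 1.82% for 6 enterocyte markers, and their part in these values was not tested. Slc6a20a at 31.0% and Slc1a1 at 64.5% of their highest level lay outside that range.

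**Figure D3:**
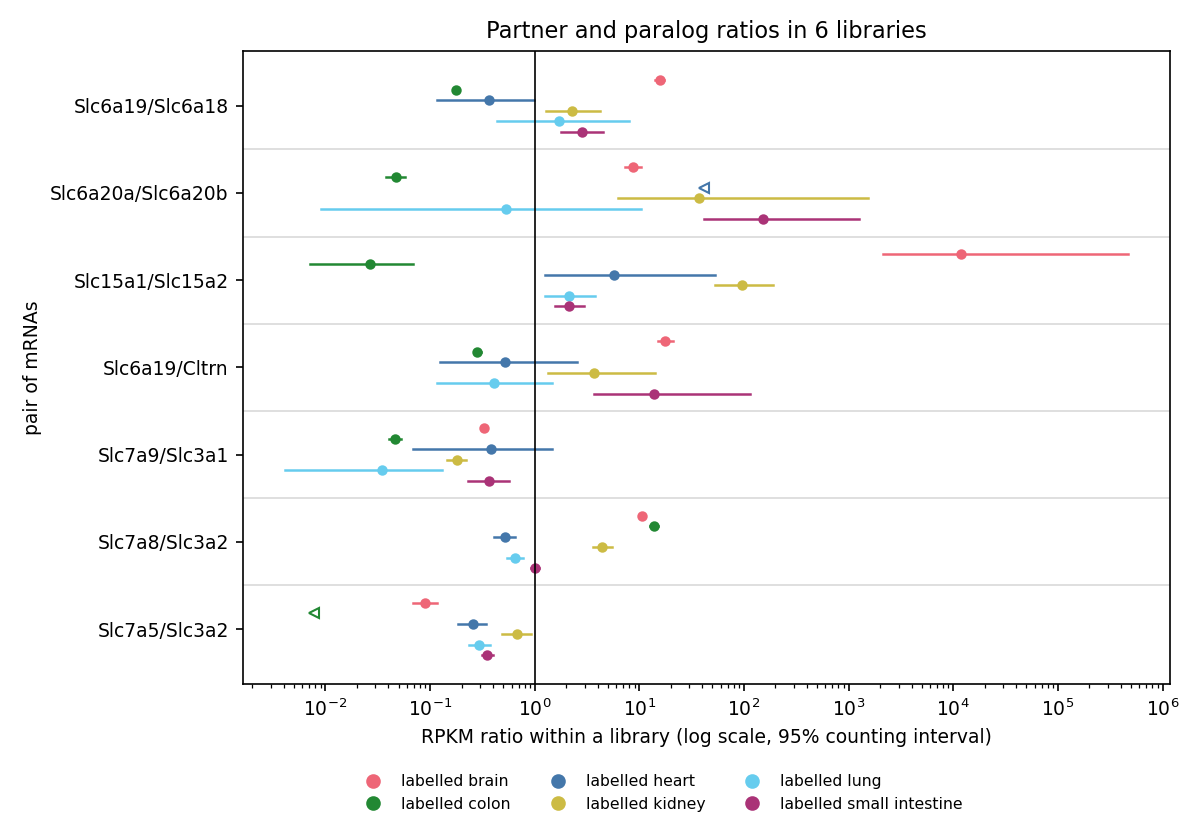
RPKM ratio of 7 pairs of mRNAs within each library (log axis), with points for the ratio, bars for the 95% counting interval and colours for the 6 labels; an open triangle gives the upper limit where the first mRNA had no reads. The ratios Slc6a19/Slc6a18, Slc6a20a/Slc6a20b and Slc15a1/Slc15a2 lie above 1 in the brain-labelled library and below 1 in the colon-labelled.

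Slc6a14, which takes up neutral and cationic amino acids with sodium and chloride, was the leading carrier in 2 libraries. It had 743 RPKM in the kidney-labelled library, 82.0 in the lung-labelled, 30.9 in the brain-labelled, 8.11 in the heart-labelled, 0.580 in the colon-labelled and 0.273 in the small intestine-labelled. It stood 9.05-fold above the second library and made up 64.0% of the neutral density of the kidney-labelled library, the one with colon markers. The level in the brain-labelled library was 4.15% of the highest, beside 0 to 32.8% for the 5 colon markers there, and their part in it was not tested. In the lung-labelled library it was 11.0%, where the colon markers stood at 0 to 0.484%. Slc1a5, which exchanges glutamine and other neutral amino acids, had a similar order at its top, with 131 RPKM in the kidney-labelled library and 70.7 in the lung-labelled, and 3.46 RPKM in the small intestine-labelled. Its paralog Slc1a4, which exchanges alanine, serine and cysteine, was highest in the small intestine-labelled library at 194 RPKM, followed by 98.8 in the kidney-labelled, 67.8 in the lung-labelled, 42.4 in the colon-labelled, 31.8 in the brain-labelled and 16.5 in the heart-labelled. No neighbours in this order had overlapping intervals.

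Basolateral and general neutral carriers were led by Slc7a8, the light chain of an exchanger that releases neutral amino acids toward the blood. Slc7a8 had 958 RPKM in the colon-labelled library, 482 in the brain-labelled, 84.6 in the small intestine-labelled, 39.5 in the kidney-labelled, 17.7 in the lung-labelled and 8.75 in the heart-labelled. It was the highest carrier of all in the colon-labelled library and the one after Slc15a1 in the brain-labelled. Slc43a2, which lets branched-chain amino acids and phenylalanine out of cells, had 195 RPKM in the brain-labelled library and 150 in the colon-labelled, against 59.0 in the small intestine-labelled, 53.3 in the lung-labelled, 12.1 in the heart-labelled and 6.58 in the kidney-labelled. Slc16a10, the exit route of aromatic amino acids, was highest in the same libraries, at 123 RPKM (labelled colon) and 71.2 RPKM (labelled brain), and lowest in the small intestine-labelled at 0.170 RPKM from 2 reads.

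The light chains that pair with Slc3a2 were compared with it. Slc3a2 itself varied less than most members, from 83.7 RPKM in the small intestine-labelled library and 69.4 in the colon-labelled to 8.95 in the kidney-labelled. The 6 light chains (Slc7a5, Slc7a6, Slc7a7, Slc7a8, Slc7a10 and Slc7a11) together had 13.9 times the density of Slc3a2 in the colon-labelled library and 11.0 times in the brain-labelled. In the libraries labelled kidney, lung, small intestine and heart this ratio was 6.15, 2.18, 1.82 and 0.936. Slc7a8 supplied 99.0% of the light chain density in the colon-labelled library and 96.1% in the brain-labelled, and 71.8%, 55.6% and 55.5% of it in those labelled kidney, heart and small intestine. The leading light chain in the lung-labelled library was Slc7a10, which carries small neutral amino acids including serine, with 48.6%. Slc7a5, the light chain that imports large neutral amino acids in dividing cells and at the blood-brain barrier, had 29.4 RPKM in the small intestine-labelled library, between 4.10 and 8.09 RPKM in 4 others, and no reads in the colon-labelled, where 3 reads would give 0.434 RPKM. It stayed below Slc3a2 in every library, with ratios up to 0.672 (labelled kidney, interval 0.492 to 0.912).

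The sodium-coupled glutamine and alanine carriers of the Slc38 family were divided between libraries. Slc38a1 had 232 RPKM in the small intestine-labelled library, 64.5 in the kidney-labelled, 56.8 in the heart-labelled, 42.5 in the brain-labelled, 28.98 in the lung-labelled and 16.0 in the colon-labelled. Slc38a2, which cells raise when amino acids run short, was the most even member of the family, between 15.5 RPKM (labelled lung) and 49.1 RPKM (labelled heart). Slc38a1 was 6.05 times Slc38a2 in the small intestine-labelled library (5.47 to 6.71), and between 0.852 and 1.93 times in the other 5. Slc38a4 was highest in the heart-labelled library at 19.4 RPKM and lowest in the small intestine-labelled at 0.558 RPKM. The glutamine carrier Slc38a3 had 15.2 RPKM in the colon-labelled library, 8.47 in the heart-labelled, 7.14 in the kidney-labelled and 2.59 in the small intestine-labelled, with 1 read in the brain-labelled and 2 in the lung-labelled. Its relative Slc38a5 was concentrated in the lung-labelled library, with 28.4 RPKM from 315 reads there and at most 0.425 RPKM, from 5 reads, in any other, a 66.7-fold difference. The lysosomal arginine sensor Slc38a9 had between 6.38 and 8.73 RPKM in the libraries labelled heart, kidney and small intestine, with overlapping intervals, and no reads in the lung-labelled. Slc7a10 had 28.96 RPKM in the lung-labelled library and 16.8 in the small intestine-labelled, and at most 6 reads elsewhere. Slc7a12, a carrier of small neutral amino acids, had 17.3 RPKM from 109 reads in the colon-labelled library and at most 3 reads in any other.

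Among cationic carriers, Slc3a1 and Slc7a9 form the exchanger that takes up cystine and cationic amino acids from the lumen. Slc3a1, the heavy chain, had 780 RPKM in the colon-labelled library, 345 in the brain-labelled, 50.4 in the kidney-labelled, 6.30 in the small intestine-labelled, 5.10 in the lung-labelled and 0.654 in the heart-labelled. Slc7a9, the light chain, had 113 RPKM in the brain-labelled library, 35.7 in the colon-labelled, 9.03 in the kidney-labelled, 2.33 in the small intestine-labelled, 0.251 in the heart-labelled and 0.177 in the lung-labelled. The same libraries led for both chains, but in the opposite order. The light chain was 0.326 times the heavy chain in the brain-labelled library (0.310 to 0.344), 0.179 times in the kidney-labelled (0.144 to 0.221) and 0.0458 times in the colon-labelled (0.0400 to 0.0521). Slc7a13, the other light chain of Slc3a1, had 12.4 RPKM from 80 reads in the colon-labelled library and no reads elsewhere, at least 44.9-fold higher when 3 reads in a library are taken as the floor. Both light chains of the colon-labelled library thus lay below their heavy chain.

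The remaining cationic carriers had lower densities. Slc7a1, the general importer of arginine and lysine, ranged from 13.7 RPKM (labelled lung) to 70.4 RPKM (labelled small intestine). Slc7a2, which is known from liver and macrophages, had 28.7 RPKM in the small intestine-labelled library and 17.2 in the lung-labelled. Slc7a1 exceeded Slc7a2 in 5 libraries, by 2.45 to 20.0 times, whereas the ratio was 0.798 in the lung-labelled library (0.660 to 0.962). Slc7a3, known from neurons, had 14.0 RPKM in the small intestine-labelled library from 198 reads, 0.996 RPKM in the kidney-labelled from 14 reads, and no reads in the other 4. Slc7a14 of the same family had 39.9 RPKM in the small intestine-labelled library, 9.25-fold above the brain-labelled at 4.31 RPKM. Slc7a7, the basolateral light chain that lets cationic amino acids out of epithelia, had 14.0 RPKM in the brain-labelled library, 10.01 in the colon-labelled and 4.91 in the kidney-labelled, and at most 8 reads in the other 3. Its paralog Slc7a6 had no reads in the libraries labelled brain and colon and 4.27 RPKM in the kidney-labelled, where both paralogs had overlapping densities (ratio 1.15, 0.774 to 1.72).

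Of the anionic carriers, Slc1a1, which takes up glutamate and aspartate in kidney, gut and neurons, led in 5 libraries. Its density was 240 RPKM in the colon-labelled library, 155 in the small intestine-labelled, 73.9 in the brain-labelled, 42.4 in the kidney-labelled, 3.79 in the lung-labelled and 1.95 in the heart-labelled. Only the last pair had overlapping intervals. Slc7a11, the light chain that imports cystine for glutathione in exchange for glutamate, had 20.9 RPKM in the small intestine-labelled library, 3.87 in the lung-labelled and 1.56 in the brain-labelled, with 3 reads in the kidney-labelled, 1 in the heart-labelled and none in the colon-labelled. It was 5.42-fold higher in the small intestine-labelled library than in the second. Slc7a13, also counted as anionic, is described above with its heavy chain Slc3a1.

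Among carriers of proline and glycine, the paralogs Slc6a20a and Slc6a20b repeated the split between the libraries labelled brain and colon. Slc6a20a had 67.4 RPKM in the brain-labelled library, 20.9 in the small intestine-labelled, 11.7 in the colon-labelled, 2.60 in the kidney-labelled, 0.0728 in the lung-labelled and no reads in the heart-labelled. Slc6a20b had 249 RPKM in the colon-labelled library, 7.80 in the brain-labelled and at most 2 reads in any other. The ratio of Slc6a20a to Slc6a20b was 8.64 in the brain-labelled library (7.32 to 10.3) and 0.0472 in the colon-labelled (0.0380 to 0.0581). Counted per window found in no other mRNA, as shown by the stretches above, the ratios were 9.19 and 0.0502. Slc6a20a was also high without Slc6a20b in the small intestine-labelled library, with 284 reads against 2.

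The glycine carrier Slc6a9, which clears glycine around synapses and supplies it to red cell precursors, had 208 RPKM in the small intestine-labelled library, 60.3 in the lung-labelled, 35.9 in the brain-labelled, 27.6 in the kidney-labelled, 10.1 in the colon-labelled and 4.35 in the heart-labelled. It was 3.44-fold above the second library, but 5.27-fold with median-of-ratios scaling and 4.02-fold without mRNAs of over 1% of the reads in the denominator, which passes the threshold. It made up 89.3% of its system there. The proton-coupled carriers were low everywhere. Slc36a1 reached 6.63 RPKM and Slc36a2 reached 5.32 RPKM, both in the lung-labelled library, with overlapping intervals there (ratio 1.25, 0.871 to 1.79). Slc36a2 had 59 reads in the lung-labelled library and at most 15 in any other, and it was no longer called when mRNAs with over 1% of the reads were left out of the denominator (3.34-fold).

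The peptide carriers had the sharpest contrast between paralogs. Slc15a1, the low-affinity carrier of the intestine, had 499 RPKM in the brain-labelled library, 62.1 in the kidney-labelled, 7.81 in the small intestine-labelled, 2.62 in the lung-labelled, 0.632 in the heart-labelled and 0.417, from 4 reads, in the colon-labelled. The level in the kidney-labelled library was 12.4% of the highest, beside 0.435 to 9.64% for the 6 enterocyte markers there, and the part of these cells was not tested. Slc15a2, the high-affinity carrier of the kidney, had 15.8 RPKM in the colon-labelled library, 3.65 in the small intestine-labelled, 1.22 in the lung-labelled, 0.653 in the kidney-labelled, 0.110 in the heart-labelled and 0.0424, from 1 read, in the brain-labelled. Reads of Slc15a1 and Slc15a2 numbered 11296 and 1 in the brain-labelled library, and 4 and 158 in the colon-labelled. In RPKM the ratio was 95.1 in the kidney-labelled library (52.9 to 191) and 0.0264 in the colon-labelled (0.00711 to 0.0690). The call for Slc15a2 rested on a fold of 4.32, which was 3.98 without the reads of Kri1 in the denominator and 3.20 with median-of-ratios scaling.

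Seen by side of the cell, 12 carriers were counted as apical and 7 as basolateral, with the heavy chains included. The apical ones were Slc1a1, Slc1a5, Slc3a1, Slc6a14, Slc6a18, Slc6a19, Slc6a20a, Slc7a9, Slc7a13, Slc15a1, Slc15a2 and Slc36a2. The basolateral ones were Slc3a2, Slc7a6, Slc7a7, Slc7a8, Slc16a10, Slc38a3 and Slc43a2. Slc6a20b, at 249 RPKM in the colon-labelled library, was in neither sum, and the heavy chain Slc3a1 gave 780 RPKM of the apical sum there. Apical carriers summed to 2140 RPKM in the colon-labelled library, 1523 in the brain-labelled, 1046 in the kidney-labelled, 207 in the small intestine-labelled, 172 in the lung-labelled and 41.1 in the heart-labelled. Basolateral carriers summed to 1325 RPKM in the colon-labelled library and 808 in the brain-labelled, against 80.0 in the kidney-labelled, 102 in the lung-labelled, 231 in the small intestine-labelled and 64.2 in the heart-labelled. Both sides were thus high together in the libraries labelled colon and brain, whereas the kidney-labelled had a high apical sum, 71.0% of it Slc6a14, over a low basolateral one. In the libraries labelled heart and small intestine the basolateral sum was the larger. These sides are those known in gut and kidney, and in other tissues they are names only.

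**Figure D4:**
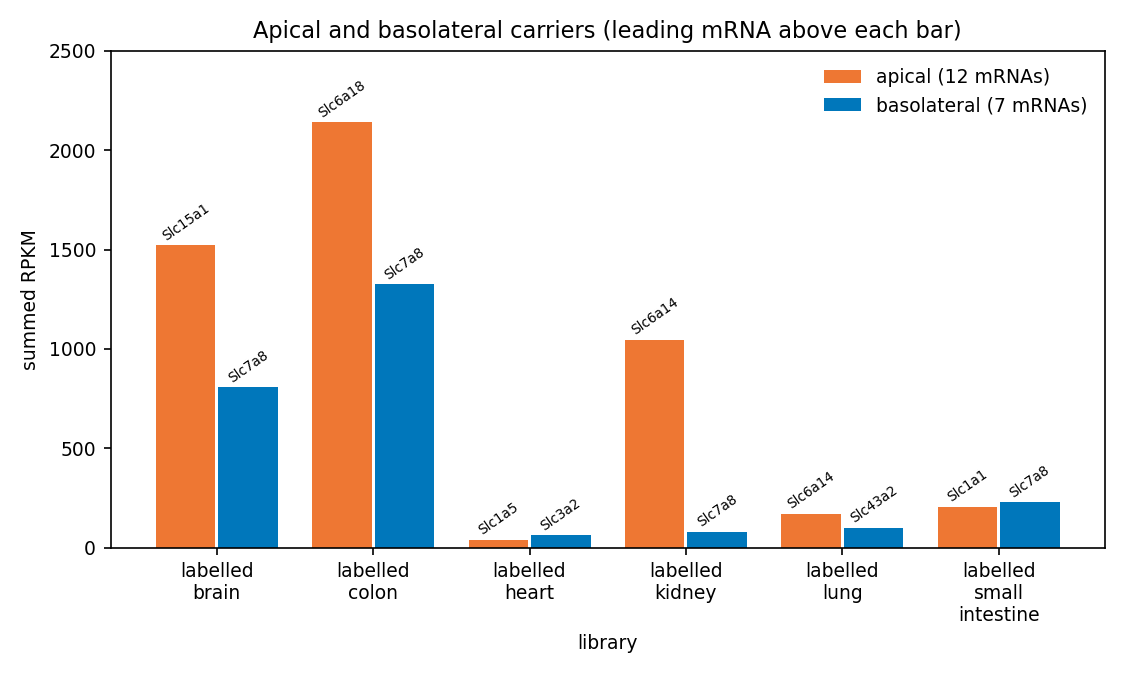
Summed RPKM of 12 apical carriers (orange) and 7 basolateral carriers (blue) in each library, named by label, with the leading carrier above each bar. The basolateral sum is the larger only in the libraries labelled heart and small intestine, and the kidney-labelled library has 1046 RPKM apical against 80.0 RPKM basolateral.

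Pairs of libraries were compared with the same threshold of 4-fold and intervals that do not overlap, over mRNAs with at least 20 reads in the pair together. The pairs share libraries and are not independent. Between the libraries labelled colon and brain, 6 of 31 carriers were higher in the colon-labelled (19.4%, background 22.0%) and 5 were lower (16.1%, background 19.3%). The 6 were Slc6a18 (38.6-fold), Slc6a20b (31.9-fold), Slc7a12, Slc7a13, Slc15a2 and Slc38a3, of which the last 4 had at most 1 read in the brain-labelled library. The 5 were Slc15a1, Slc6a14, Slc6a20a, Slc7a5 and Slc7a14. These shares were near the background, so the split lay in which carriers differed and not in how many.

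**Figure D5:**
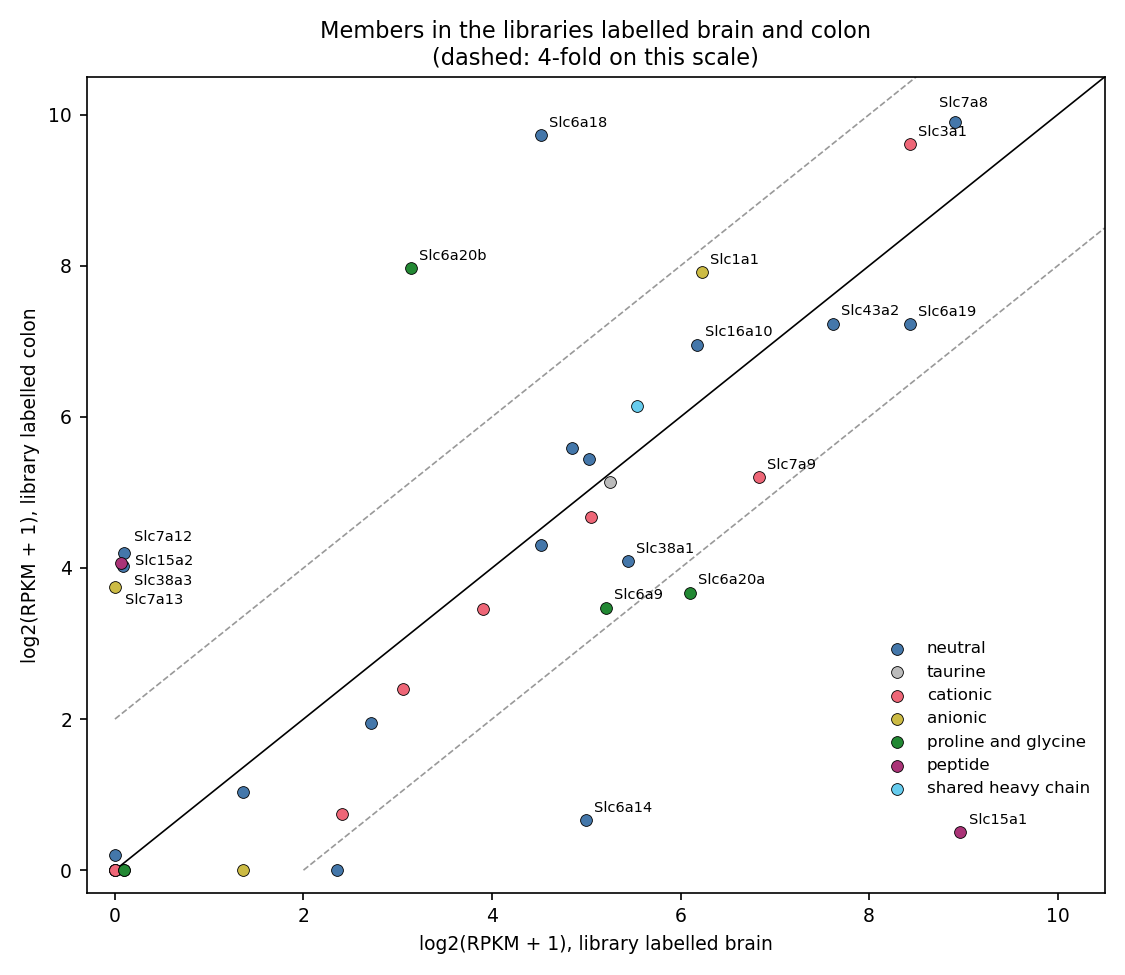
Each point is 1 of the 38 carriers, by its log2(RPKM + 1) in the brain-labelled library (x) and in the colon-labelled (y), coloured by transport system; the solid line marks equal density and the dashed lines 4-fold. Slc7a8 and Slc3a1 lie near the upper end in both, while Slc6a18, Slc6a20b, Slc15a2 and Slc15a1 lie far from the line.

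Between the libraries labelled brain and kidney, 12 of 30 carriers were higher in the brain-labelled (40.0%, background 12.6%) and 6 were lower (20.0%, background 19.3%). The 12 include Slc6a18 and Slc6a20b, at 2.59% and 3.13% of their colon-labelled level. The 5 kidney markers stood at 0.827 to 4.16% there, and their part in these 12 calls was not tested. The largest of the 12 with over 20 reads on both sides were Slc6a19 (118-fold, 87.5 to 164), Slc43a2 (29.7-fold, 23.9 to 37.3) and Slc6a20a (25.9-fold, 18.5 to 37.4). Between the libraries labelled colon and kidney, 13 of 32 were higher in the colon-labelled (40.6%, background 16.4%) and 8 were lower (25.0%, background 18.1%). Slc6a19 was 51.1-fold higher there, Slc7a8 24.3-fold and Slc3a1 15.5-fold, and the lower ones included Slc38a1 at 0.248 times. The median log2 ratio over the carriers was 0.81 for the brain-labelled library over kidney and 0.80 for the colon-labelled over kidney, against 0.17 and 0.24 over all mRNAs, on the log2(RPKM + 1) scale. For the colon-labelled library over brain it was -0.32, against 0.06.

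Against the heart-labelled library, carriers were denser in the small intestine-labelled. There 21 of 31 were higher (67.7%, background 22.5%) and 5 were lower (16.1%, background 14.7%), with a median log2 ratio of 2.14 against 0.13 over all mRNAs. The 21 include Slc15a1, Slc6a19 and Slc7a9, at 1.56%, 1.56% and 2.07% of their brain-labelled level. The 6 enterocyte markers stood at 1.15 to 1.82% there, and their part in the 21 calls was not tested. Among the 21, Slc1a1 was 79.5-fold higher (53.7 to 123), Slc6a9 47.8-fold (37.6 to 61.7) and Slc7a14 22.2-fold (15.7 to 32.3). The 5 lower carriers were Slc1a5, Slc6a14, Slc7a6, Slc16a10 and Slc38a4. In the lung-labelled library, 13 of 29 were higher than in the heart-labelled (44.8%, background 25.6%) and 4 were lower (13.8%, background 18.7%), with a median log2 ratio of 1.00 against 0.61. With median-of-ratios scaling, which moved this ratio down for every mRNA, 9 were higher (background 18.3%) and 6 lower (background 21.7%), and without mRNAs of over 1% of the reads in the denominator 9 (background 21.4%) and 5 (background 20.3%). Both of these labels matched their markers. Slc6a9 (13.9-fold), Slc6a14 (10.1-fold) and Slc7a2 (15.0-fold) were among the higher ones, and Slc16a10, Slc38a3, Slc38a9 and Slc7a14 were the lower ones.

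Other genes of amino acid transport gave a frame for the carriers. Of 16 further carriers of amino acids, 14 had enough reads, and 9 of these were concentrated in the small intestine-labelled library (background 9.51%) and 1 in the colon-labelled (background 2.60%). Among the highest were the glutamate carriers of glia, Slc1a2 at 1393 RPKM and Slc1a3 at 376 RPKM, and the GABA carrier Slc6a11 at 127 RPKM, all in the small intestine-labelled library. Of 10 partners and peptidases of the brush border, 5 were concentrated in the brain-labelled library (background 2.30%) and Cltrn in the colon-labelled. The aminopeptidase Anpep had 3690 RPKM in the brain-labelled library, Enpep 679 and the meprin subunit Mep1b 631, against 133, 23.1 and 105 RPKM in the colon-labelled. None of 6 lysosomal carriers was concentrated in any library (background 22.9%), and their highest values were 77.5 RPKM for the cystine carrier Ctns (labelled heart), 40.1 for Slc17a5 (labelled colon), 32.1 for Slc15a4 (labelled small intestine) and 8.75 for Slc66a1 (labelled lung). Of 10 genes by which mTORC1 senses amino acids, 1 was concentrated in any library (background 22.9%). It was Castor1 in the kidney-labelled library (background 1.16%), from 23 reads there, a gene named here after its value was seen. Rraga (342 RPKM, labelled small intestine), Lamtor5 (235, labelled heart), Lamtor4 (229, labelled heart) and Lamtor1 (83.5, labelled heart) were the highest of that list.

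Markers of tissues that were not sampled were also read. The 4 markers of the acinar pancreas summed to 7.84 RPKM in the heart-labelled library and to at most 0.257 RPKM elsewhere. Of the 3 liver markers, Alb had 633 RPKM in the kidney-labelled library and 375 in the colon-labelled, while Apoh and Serpina1a were at or below 16.8 RPKM in every library. The members' CDSs were richer in codons that end in G or C than most, with a median of 65.2% against 58.9% over 18154 mRNAs. Of the members, 33 of 38 were above 50%, but only 26.2% of all those mRNAs lay below 50%, so such a value was common. Slc7a12 and Slc6a14 were at the low end with 34.1% and 34.3%, and Slc7a5 at the high end with 81.5%. Weighted by RPKM, this share was 49.8% over the carriers of the kidney-labelled library, where Slc6a14 led, and between 63.6 and 67.2% in the other 5.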

How the data were processed

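Ribosome footprints of 6 tissues, 1 library each, were analysed as RPKM per mRNA, as deposited by the authors. The Methods give the steps for macrophages, and the same steps were assumed for the tissues. Cutadapt trimmed adapters, fragments under 15 nt were dropped, and STAR mapped the rest to 1 mRNA per gene (that of longest CDS) from Ensembl release 107 of GRCm39. Fragments that mapped to several mRNAs or had over 2 mismatches were dropped, and those on the CDS were counted. Tool versions are not given in the sources used here.

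Read counts were recovered from RPKM and CDS length and were whole for 100% of values (within 0.01 of a read), 4504853 to 10635031 per library. Gene IDs were matched to symbols through GENCODE M39 (18424 of 18437), which also gave coordinates and CDSs. Levels carry exact Poisson intervals, ratios within a library Clopper-Pearson intervals and shares Wilson intervals, all at 95%. PCR reads without molecular identifiers are not independent molecules, so these cover counting error only. A count of 0 was set against 3 reads. The rules were at least 20 reads, 4-fold and intervals apart. All 38 members are named, with the tissue markers, Cltrn, Kri1 and the 4 highest genes of each further list, of which some are not reported here. The members and lists were chosen with earlier results of these data known. Alternatives covered the denominator, scaling, filters, fold, thinning and the unit, and each library left out in turn was added after seeing the data. Read recovery and calls were tested on simulated data. Computation used biopython 1.88, matplotlib 3.10.9, pandas 2.3.3, scipy 1.17.1 and numpy 2.4.6 under Python 3.11.15.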

Additional observations from a re-analysis of the deposited data

How the results depend on the processing

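No paired analysis was possible because each tissue gave 1 library. Shares in parentheses are those over all mRNAs tested at the same setting. The count of 12 concentrated carriers was between 10 and 12 under the other denominators, scaling, read filters, thinning and log2(RPKM + 1) (18.4 to 22.5%), and between 11 and 16 with 1 library left out (19.6 to 27.3%), an alternative chosen after seeing the data. It was 20 at 2-fold (42.9%) and 6 at 10-fold (11.2%). Of the 12, 9 were called under each of the 7 settings that keep the fold at 4, and Slc15a2, Slc36a2 and Slc7a13 were lost under at least 1, Slc7a13 only when 100 reads were asked for. Slc6a9 and Slc7a5, not among the 12, were called under 2 of these settings each. For pairs of libraries, with labels for names, carriers lower in brain than in kidney numbered 3 with at least 100 reads (6.84%). Carriers lower in colon than in kidney numbered 3 with at least 100 reads (12.3%), 3 at 10-fold (9.15%) and 5 on the log2(RPKM + 1) scale (12.2%). Carriers higher in lung than in heart numbered 7 with at least 100 reads (24.2%), 8 at 10-fold (11.6%) and 8 on the log2(RPKM + 1) scale (19.0%). Carriers lower in colon than in brain numbered 10 at 2-fold (30.0%) and 2 at 10-fold (10.7%). At 10-fold, 7 were higher in brain than in kidney (5.65%) and 12 higher in small intestine than in heart (14.2%). A stricter filter on reads or a higher fold can only lower a count.

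Without the reads of Kri1 in the denominator, the carriers took 0.478% of reads in the brain-labelled library, 0.743% in the colon-labelled, 0.339% in the kidney-labelled and 0.266% in the small intestine-labelled, with the order unchanged. Median-of-ratios scaling, over 4300 mRNAs, multiplied the denominators by 0.813 (labelled kidney) to 1.32 (labelled lung), and kept every count by pair within 1.5 times. Of 16 pairs in 6 libraries, 38 ratios had intervals above 1 and 43 below. Ratios without reads on either side of the pair were not compared one by one between settings. Of the rest, no called ratio changed direction under reads in place of RPKM, unique windows or thinning. The interval came to include 1 for 2 called ratios with reads in place of RPKM and for 5 with thinning. Ratios with few reads, mainly in the libraries labelled heart, lung and kidney, are limited by depth. The shares by transport system depended on the unit. With reads in place of RPKM, 24 of these shares moved beyond counting error and 18 did not. Thinning moved 1 and left 41 within it.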
